A study of Mus musculus with 12 samples.

Results

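The heavy chain V genes of mouse (Ighv) were taken as the rows of the count table whose GENCODE symbol starts with Ighv and whose biotype is a functional immunoglobulin V gene. There were 111 of them among 32121 rows, out of 113 annotated. Ighv1-16 and Ighv16-1 had no row. They fall into 15 families by the first number of the symbol, with 52 genes in Ighv1, 10 in Ighv5, 9 each in Ighv2 and Ighv8, and 6 or fewer in each other family. All lie on the minus strand of chromosome 12 between positions 113578504 and 116000461 of GRCm38.

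RNA was sequenced from spleens of 3 SB mice and 3 wild-type (WT) mice, 2 pieces per spleen, giving 12 libraries of 14320833 to 22031026 counts. SB mice 1, 2 and 3 (F270, F262 and M267 in the labels) carried VEC-Cre, the SB Transposase (the Sleeping Beauty enzyme that moves DNA transposons) and onc2, a mutagenic transposon. WT mice 1 to 3 are labelled wild type, and all 6 animals are labelled C57BL/6. VEC-Cre is a Cre recombinase aimed at the endothelium. The series asked whether pieces of a spleen are alike. Ages are not given in the labels. The animal was the replicate, and the pieces are cuts of the same spleen. The labels number the SB pieces 1 and 2 but letter the WT pieces A and B, which are called pieces 1 and 2 here. The labels tie neither a number nor a letter to a position in the spleen. H2-Ea-ps, a class II histocompatibility gene that C57BL/6 mice do not transcribe because of a deletion, had 0.17, 0.242 and 0.0971 CPM (counts scaled to a common library size) in SB animals 1, 2 and 3, against 86.8, 97.5 and 90.7 CPM in WT animals 1, 2 and 3. The labelled strain and the values of this gene therefore differ in the WT animals, and strain and genotype cannot be told apart. The deposited counts hold no base calls, so the Ighv alleles of the animals could not be read.

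A B cell builds its heavy chain by joining 1 V segment to a D and a J segment, and the joined V exon is spliced to a constant gene. Only the V segment brought next to the intronic enhancer is transcribed strongly, so V gene RNA reports which segments the B cells and plasma cells of a tissue have joined. Cells of 1 clone share the same V segment, and plasma cells hold far more heavy chain RNA than resting B cells. In RNA of whole tissue, fewer cells of a type and less RNA per cell cannot be told apart.

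The V segments have a similar length, with 303 to 480 exon bases (median 353), and much shared sequence. The nearest other V gene was identical to a member at a median of 93.2% of bases, and 17 members had a copy at least 97% identical. The last 90 bases of 9 members are printed because these genes carry the differences described below. They end framework 3 and begin the third complementarity-determining region. Capitals mark the last match of TANTNNTGN (N is any base, and only the coding strand and the last 25 bases were searched). It spans the tyrosine and cysteine codons at the end of framework 3. It was found in 108 of the 113 annotated genes (95.6%). The sequences are germline bases from the GENCODE transcripts of GRCm38, written 5′ to 3′.

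Ighv1-9: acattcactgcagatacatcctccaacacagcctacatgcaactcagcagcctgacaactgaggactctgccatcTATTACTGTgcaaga
Ighv14-4: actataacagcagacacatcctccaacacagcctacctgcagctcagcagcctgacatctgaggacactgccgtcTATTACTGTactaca
Ighv14-1: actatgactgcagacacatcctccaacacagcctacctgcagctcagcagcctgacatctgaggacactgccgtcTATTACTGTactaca
Ighv1-67: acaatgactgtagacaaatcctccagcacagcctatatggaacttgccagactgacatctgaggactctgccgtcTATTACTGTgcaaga
Ighv1-82: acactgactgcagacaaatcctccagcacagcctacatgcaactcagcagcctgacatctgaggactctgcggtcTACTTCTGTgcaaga
Ighv5-9-1: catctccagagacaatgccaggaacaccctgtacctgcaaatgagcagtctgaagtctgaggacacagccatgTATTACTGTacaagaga
Ighv6-3: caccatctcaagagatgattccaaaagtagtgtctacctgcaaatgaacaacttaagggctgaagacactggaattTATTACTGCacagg
Ighv1-81: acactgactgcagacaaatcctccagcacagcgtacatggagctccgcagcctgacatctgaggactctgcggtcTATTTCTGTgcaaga
Ighv1-47: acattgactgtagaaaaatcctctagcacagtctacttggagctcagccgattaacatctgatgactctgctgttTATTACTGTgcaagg

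The first stretch (Ighv1-9) lies at chr12:114583569-114583658, minus strand. Ighv14-4 lies at chr12:114176438-114176527 and Ighv14-1 at chr12:113931953-113932042, and they differed at 2 of these 90 bases. Reads from this pair may be shared. Ighv1-67 lies at chr12:115603940-115604029, Ighv1-82 at chr12:115952538-115952627, Ighv5-9-1 at chr12:113736111-113736200 and Ighv6-3 at chr12:114391712-114391801. Ighv1-81 lies at chr12:115920279-115920368 and Ighv1-47 at chr12:114991108-114991197. Ighv1-47 differed from Ighv1-81 at 17 of the 90 bases, Ighv1-9 at 13 and Ighv1-67 at 11. Each stretch lies in 1 exon of the V segment.

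Summed over the members, Ighv RNA came to 75.8, 375 and 203 CPM in SB spleens 1, 2 and 3, against 1508, 1291 and 1006 CPM in WT spleens 1, 2 and 3. Each SB animal was below each WT animal. The mean was 218 ± 150 CPM in SB animals and 1268 ± 252 CPM in WT animals (SD, n = 3 each), a log2 difference of -2.80, or 6.98-fold between the geometric means. The two-sided exact permutation p was 0.1, the smallest that 3 animals against 3 allow. Piece by piece, the sum was 34.5 to 393 CPM in the 6 SB libraries and 923 to 1626 CPM in the 6 WT libraries. SB animal 1 held 564 Ighv counts in piece 2 and 2103 in piece 1, and the other SB pieces held 3164 to 6994, against 16686 to 29650 in WT pieces. The precision of shares within the first SB spleen is limited by these counts. For example, the 81 Ighv1-64 counts in its piece 2 are a share of 14.4% (exact Clopper-Pearson 95% interval 11.6% to 17.5%), which covers counting error only.

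**Figure D1:**
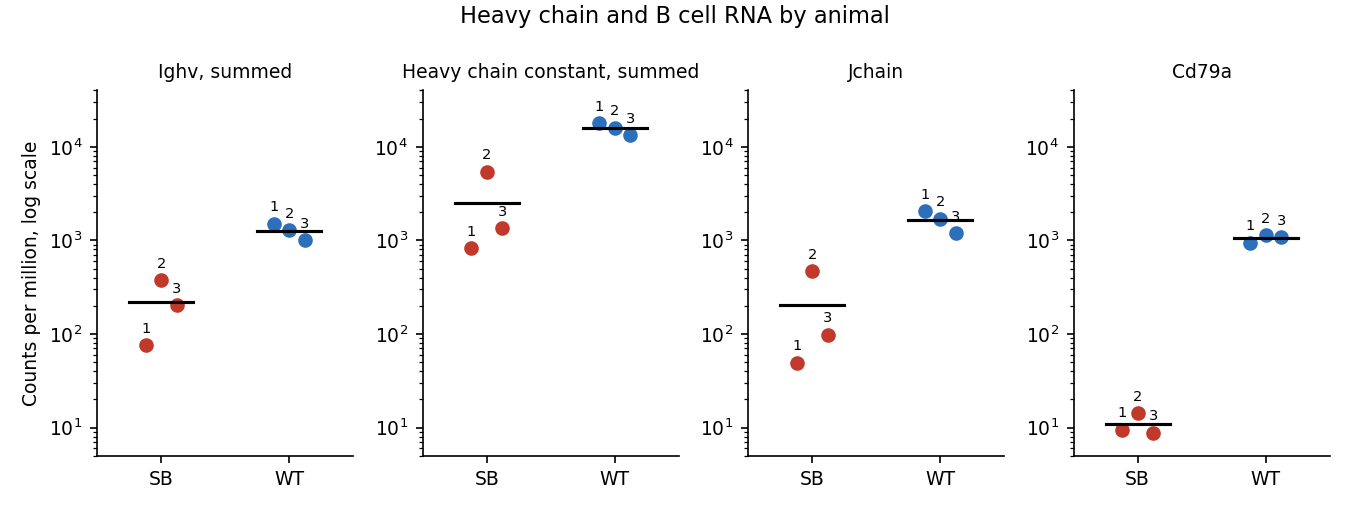
CPM (log axis) of summed Ighv genes, summed heavy chain constant genes, Jchain and Cd79a in each animal (points numbered by animal, lines are means, SB left, WT right). Summed Ighv lay at 75.8 to 375 CPM in SB animals and 1006 to 1508 CPM in WT animals, while Cd79a lay at 8.83 to 14.1 CPM in SB animals and 943 to 1137 CPM in WT animals.

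V gene RNA was lower by less than the RNA of B cell surface and signalling genes. Cd79a, a signalling chain of the B cell receptor, had 9.46, 14.1 and 8.83 CPM in SB animals, against 943, 1137 and 1081 CPM in WT animals, 99.4-fold between the geometric means. For each CPM of Cd79a there were 8.01, 26.6 and 22.9 CPM of Ighv in SB animals, against 1.60, 1.14 and 0.931 CPM in WT animals. These ratios did not overlap (exact permutation p = 0.1, the smallest possible). Jchain, which joins secreted IgM and IgA into polymers and is abundant in plasma cells, had 49.0, 470 and 98.6 CPM in SB animals and 2036, 1697 and 1186 CPM in WT animals. Ighv per CPM of Jchain was 1.55, 0.799 and 2.05 in SB animals and 0.741, 0.761 and 0.848 in WT animals, which overlap.

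The lists of related genes were read by their counts, beside the 9.1% of all 17328 genes tested that fell and the 7.99% that rose. All 10 B cell genes fell by edgeR's quasi-likelihood test (Benjamini-Hochberg adjusted p under 0.05), with a median log2 change of -6.76. Their summed level was 70.4 to 161 CPM in SB animals and 8912 to 9961 CPM in WT animals. Of 9 plasma cell genes, Mzb1, Irf4 and Tnfrsf13b fell and 6 did not pass. Mzb1, an endoplasmic reticulum protein that helps IgM secretion, had 4.58, 28.6 and 5.58 CPM in SB animals and 248, 258 and 236 CPM in WT animals (log2 -4.26, SE 0.82, adjusted p 0.0229). Prdm1, the transcription factor of plasma cell differentiation, did not pass, with 2.5, 23.4 and 4.49 CPM in SB animals and 20.1, 15.9 and 16.1 CPM in WT animals. SB animal 2 had the highest value of both genes among the SB animals, as it did for Jchain, Irf4, Derl3 and Tnfrsf17. The rest of the list went otherwise: Tnfrsf13b was highest in SB animal 1, and Sdc1 and Xbp1 were highest in SB animal 3. Xbp1 did not pass, with 215, 268 and 274 CPM in SB animals and 216, 193 and 176 CPM in WT animals (log2 0.375).

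Of 9 genes of B cell precursors and recombination, 5 were tested and 4 fell (Rag1, Vpreb3, Ebf1 and Il7r). The recombinase gene Rag1 was at 0 to 0.0485 CPM in SB animals and 0.301 to 1.01 CPM in WT animals. Of 8 heavy chain constant genes, 5 fell (Ighd, Ighg2b, Ighg3, Ighe and Igha), and Ighm, Ighg1 and Ighg2c did not pass. Ighm took 93.3% and 93.7% of constant gene counts in pieces 2 and 1 of SB animal 2. The shares were 59.8% and 63.6% in SB animal 1 and 37.5% and 40.6% in SB animal 3, against 54.6% to 63.7% in WT pieces.

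Genes of other cell types were counted in the same way. Of 7 T cell genes 3 fell, of 6 erythroid genes 2 rose, of 4 megakaryocyte genes 2 rose, of 4 neutrophil genes 1 rose, of 4 red pulp macrophage genes 0 passed and of 4 cell cycle genes 3 rose. In lists of 4 genes a single call weighs heavily, and a count of 0 or 1 is not set apart from the share over all genes. The summed erythroid level was 2275 to 29630 CPM in SB animals and 17660 to 37300 CPM in WT animals, and the summed megakaryocyte level was 559 to 4089 CPM in SB animals and 141 to 322 CPM in WT animals. The part of these cells in the Ighv values was not tested.

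Single V genes were compared between 3 SB and 3 WT animals after summing the pieces of a spleen. Of the 111 members, 95 passed the filter on low counts and 16 did not. By edgeR, 43 of the 95 fell and 0 rose, and 52 did not pass. Among all 17328 genes tested, 9.1% fell, 7.99% rose and 17.1% were called in either direction. At an unadjusted p under 0.05 there were 66 members, against 34.6% of all genes tested. DESeq2 called 67 of 93 lower and 0 higher, against 16.1% of all genes lower. With the summed Ighv counts as library size, so that use within the V genes is compared, 4 of 92 were lower and 5 higher in SB animals. Under that scaling 1.48% of all genes were called lower and 85.2% higher, with a median log2 change of 3.21 over all genes. The members' calls therefore hold only relative to the summed V genes. With 15557 of 17938 genes called, adjustment over all genes did little near the threshold, so these counts are close to unadjusted ones. Among the 5 higher, Ighv14-4 and Ighv1-67 were high in 1 SB animal each, at 12.2% of Ighv counts in SB animal 2 and 7.63% in SB animal 3. The median log2 change was -2.90 over the 95 members and 0.11 over all genes tested. For 58 members all 6 SB libraries lay below all 6 WT libraries, against 16.7% of all genes tested. Among the called members, Ighv3-3 and Ighv2-7 had 0 counts in all SB libraries, and with both set to the floor of 3 counts over the SB group the median stayed at -2.90.

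The calls depended on which animal was left out. With 1 SB animal left out 44 to 66 members were called, and with 1 WT animal left out 7 to 13 (9 without WT animal 1, 7 without WT animal 2 and 13 without WT animal 3). The count over all genes moved in the same way. It was 3081 to 6174 genes with an SB animal left out and 253 to 399 with a WT animal left out. With all animals it was 2961. In each of these 6 fits 7 members were called (Ighv5-2, Ighv2-2, Ighv5-9, Ighv5-17, Ighv6-3, Ighv1-18 and Ighv1-26).

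**Figure D2:**
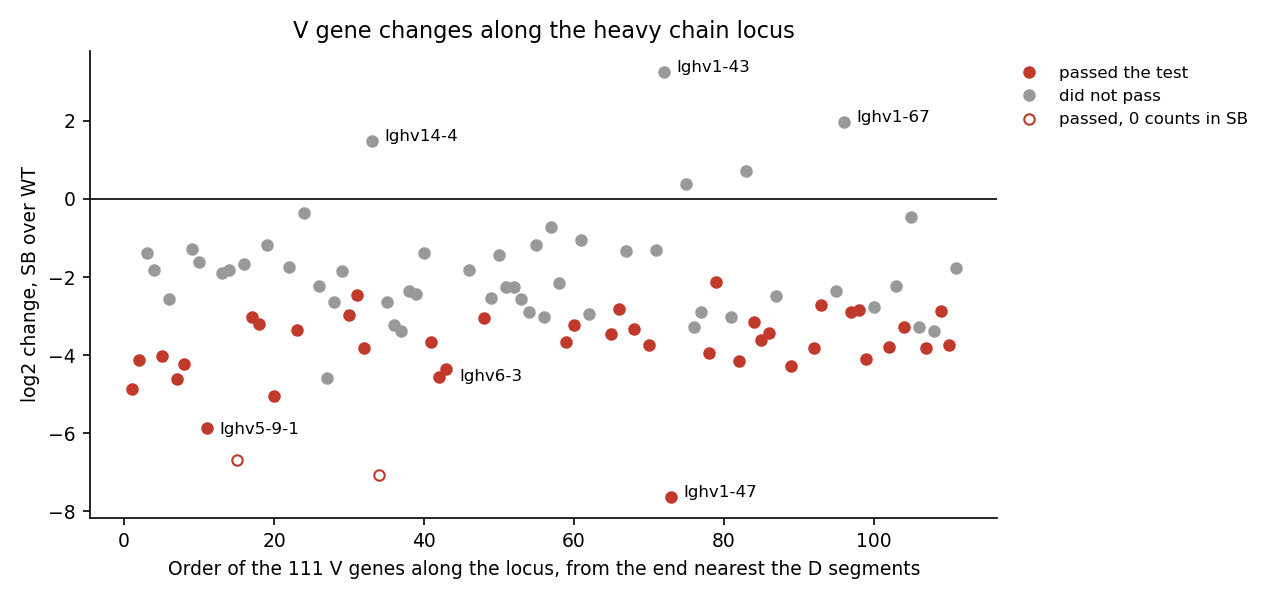
The log2 change (SB over WT) of the 95 tested members against their order along the locus, 1 being nearest the D segments. Filled red points passed the test, open red points passed with 0 counts in SB animals and grey points did not pass. Of the tested members 90 lie below 0 and 5 above it, and no member above 0 passed.

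Ighv6-3, the most used gene of its family in WT spleens, had 1.90, 1.67 and 3.25 CPM in SB animals, against 49.6, 43.7 and 46.1 CPM in WT animals (log2 -4.35, SE 0.33, edgeR adjusted p 0.00299). The groups did not overlap in any library. Ighv1-26, a widely used gene of the Ighv1 family, had 2.36, 3.0 and 3.79 CPM in SB animals and 37.9, 38.2 and 25.3 CPM in WT animals (log2 -3.47, SE 0.31, adjusted p 0.00449). Ighv1-18, in the same family, had 4.04, 3.12 and 1.72 CPM in SB animals and 49.2, 34.6 and 29.1 CPM in WT animals (log2 -3.67). Ighv2-2 had 1.25, 2.36 and 1.53 CPM in SB animals and 21.4, 24.5 and 44.4 CPM in WT animals (log2 -4.13). For each of these 4 genes all SB libraries lay below all WT libraries. Ighv2-2 is 97.2% identical to its nearest V gene, so its reads may be shared.

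Among called members with a mean of at least 5 CPM in a genotype, the lowest changes were those of Ighv1-47, Ighv5-9-1, Ighv7-1, Ighv5-9 and Ighv12-3. Ighv1-47 was nearly absent in SB animals, at 0.0852, 0.182 and 0.0243 CPM, against 39.9, 15.0 and 3.09 CPM in WT animals (log2 -7.62, SE 1.30, edgeR adjusted p 0.0165). WT animal 3 had the lowest WT value. Ighv5-9-1 had 1.65, 1.48 and 0.971 CPM in SB animals and 118.6, 104.9 and 14.1 CPM in WT animals (log2 -5.85, SE 0.91, adjusted p 0.0132). It was among the most abundant members per length in WT animals as a group, but again WT animal 3 stood well below WT animals 1 and 2. Both calls were lost without WT animal 1 (adjusted p 0.0587 for Ighv1-47 and 0.0568 for Ighv5-9-1) and without WT animal 2 (0.0738 and 0.0676).

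Ighv7-1, used in many antibodies to phosphorylcholine, had 0.313, 0.121 and 0.316 CPM in SB animals and 13.8, 6.33 and 4.85 CPM in WT animals (log2 -5.03, SE 0.67, edgeR adjusted p 0.0099, and 0.0577 without WT animal 2). Ighv12-3, used by B-1 cells that bind phosphatidylcholine, had 0.142, 0.818 and 0.0243 CPM in SB animals and 5.48, 7.08 and 10.7 CPM in WT animals (log2 -4.57, SE 1.16, adjusted p 0.0469). Its call was lost without SB animal 1 (0.0748) and without each WT animal (0.132 to 0.161). Ighv11-2, the other gene known for that B-1 specificity, did not pass, with 0.511, 0.757 and 0 CPM in SB animals and 9.12, 10.1 and 11.4 CPM in WT animals (log2 -4.60, SE 1.24, adjusted p 0.0546). All SB libraries lay below all WT libraries for both B-1 genes.

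Ighv5-2, the segment nearest the D segments and one that B cell precursors join often, had 0.0568, 0.121 and 0.0485 CPM in SB animals and 1.78, 2.92 and 2.08 CPM in WT animals (log2 -4.86, SE 0.52, edgeR adjusted p 0.00616). Ighv5-9 had 0.426, 0.757 and 0.558 CPM in SB animals and 9.18, 21.3 and 11.95 CPM in WT animals (log2 -4.60). Ighv1-72, the gene of the response to the hapten NP, was low in both groups and did not pass, with 0, 0.242 and 0.413 CPM in SB animals and 1.93, 1.69 and 0.922 CPM in WT animals (adjusted p 0.118). Its copy Ighv1-62-3 is 99.2% identical, so its value is uncertain.

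Among called members with a mean of at least 5 CPM in a genotype, the smallest decreases were those of Ighv1-53, Ighv9-3, Ighv1-64, Ighv8-12 and Ighv1-82, with log2 changes of -2.13, -2.45, -2.71, -2.84 and -2.87. Ighv1-53 had 2.59, 4.33 and 3.81 CPM in SB animals and 19.5, 13.4 and 14.1 CPM in WT animals (SE 0.33, edgeR adjusted p 0.0132). Ighv9-3 had 3.01, 9.88 and 8.30 CPM in SB animals and 36.9, 46.0 and 33.3 CPM in WT animals. Both lost the call without each WT animal (adjusted p 0.0723 to 0.0764 for Ighv1-53 and 0.0863 to 0.104 for Ighv9-3). The same held for Ighv1-64 and for Ighv1-80, a further abundant gene with 1.85, 1.15 and 5.07 CPM in SB animals and 59.5, 30.5 and 24.4 CPM in WT animals (log2 -3.82), with adjusted p of at most 0.0995 and 0.0818. The call of Ighv8-12 was lost without each WT animal (at most 0.153) and without SB animal 1 (0.0794), and that of Ighv1-82 without WT animal 2 (0.0527).

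The most abundant members in WT spleens per length were Ighv1-81 (210 CPM per kb of exon), Ighv5-9-1 (192), Ighv1-9 (139), Ighv6-3 (131) and Ighv9-3 (110), as WT means. Of these, Ighv1-81 and Ighv1-9 did not pass between genotypes, and the same was true of Ighv3-6 (101 CPM per kb). Ighv1-81 had 0.909, 16.8 and 3.50 CPM in SB animals and 91.4, 85.6 and 44.3 CPM in WT animals (log2 -3.38, SE 1.06, edgeR adjusted p 0.0804). Ighv1-9 had 1.11, 59.2 and 4.64 CPM in SB animals and 75.2, 29.5 and 41.1 CPM in WT animals (log2 -1.17, SE 1.33, adjusted p 0.575). SB animal 2 was above WT animals 2 and 3 for Ighv1-9 and far above the other SB animals for both genes. Ighv1-42, which came after Ighv1-9 and Ighv14-4 per length in SB animal 2, had 1.05, 21.6 and 1.17 CPM in SB animals and 37.4, 8.84 and 12.3 CPM in WT animals. Leaving out SB animal 2 gave log2 changes of -5.06 for Ighv1-81 (adjusted p 0.0117) and -4.08 for Ighv1-9 (adjusted p 0.0236). That animal held the highest SB value of both genes, so the lower changes follow from leaving it out. In that fit 17.7% of all genes were called lower, against 9.1% with all animals.

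Of the tested members 5 had a positive log2 change, and none passed: Ighv14-4, Ighv1-67, Ighv1-43, Ighv1-49 and Ighv1-56. The last 3 are named because they are among these 5 and were chosen after their values were seen. Ighv14-4 had 0.824, 45.8 and 0.801 CPM in SB animals and 6.14, 4.78 and 5.92 CPM in WT animals (log2 1.49, SE 1.55, edgeR adjusted p 0.534). It was high in SB animal 2 alone, and below all WT animals in the other SB animals. Without SB animal 2, which held the high value, the log2 change of Ighv14-4 was -2.78 (adjusted p 0.00489). The lower change follows from leaving out that animal, and 17.7% of all genes were called lower in that fit. Ighv1-67 had 0.0852, 2.39 and 15.5 CPM in SB animals and 0.963, 1.40 and 2.23 CPM in WT animals (log2 1.97, SE 1.46, adjusted p 0.386), and it was highest in SB animal 3. Without SB animal 3 its log2 change was -0.30.

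Shares within the Ighv counts set the loss of total V gene RNA aside. The Ighv1 family took 56.4%, 51.9% and 47.5% of Ighv counts in SB animals, against 52.6%, 48.3% and 49.1% in WT animals (exact permutation p = 0.7). Of 11 families with a WT mean of at least 1%, 3 kept the animals of the genotypes apart, each at an exact permutation p of 0.1, the smallest possible, and 0.367 after Benjamini-Hochberg adjustment over the 11. Over all 15 families, 10 had a lower and 5 a higher mean share in SB animals. By edgeR, 22 of 47 tested Ighv1 genes fell, 6 of 9 Ighv5 genes, 3 of 9 Ighv2 genes, 3 of 4 Ighv8 genes and 0 of 4 Ighv14 genes. Beside these stand 43 of all 95 tested members and 9.1% of all genes tested. Families of 4 to 9 tested genes are too small for their counts to be set apart from that of all members.

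**Figure D3:**
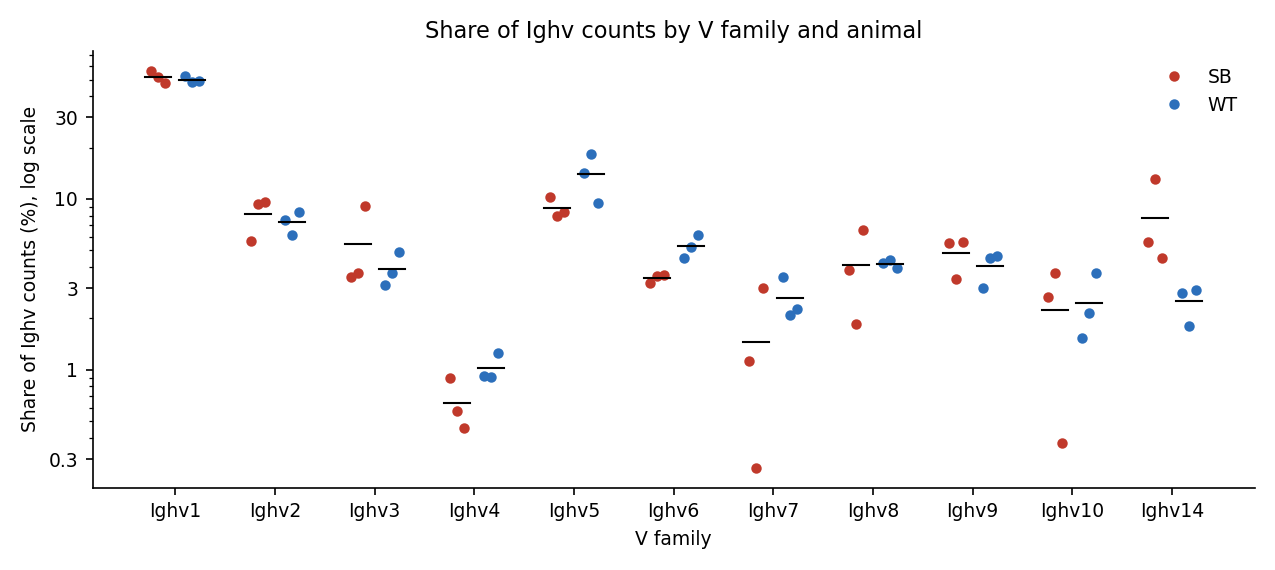
Share of Ighv counts (log axis) taken by each of 11 V families in each animal (points) with the mean (lines), SB left and WT right in each family. The Ighv1 family holds 47.5% to 56.4% in every animal. By animal the Ighv14 family is higher in SB animals, although the libraries of the groups overlap. The Ighv6 family is lower in SB animals. It is higher by 0.482 percentage points once 5 genes, Ighv6-3 among them, are left out of every animal.

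The Ighv14 family took 5.59%, 13.1% and 4.54% in SB animals, against 2.82%, 1.81% and 2.92% in WT animals. A different gene held most of it in each SB animal. In SB animal 2 Ighv14-4 alone took 12.2% of Ighv counts, in SB animal 1 Ighv14-3 took 3.38%, and in SB animal 3 Ighv14-2 took 2.30%. In piece 2 of SB animal 3, however, Ighv14-3 took 2.15% and Ighv14-2 took 2.09%. The Ighv6 family took 3.23%, 3.56% and 3.58% in SB animals and 4.52%, 5.22% and 6.13% in WT animals, without overlap between libraries. Within it, Ighv6-3 took 2.51%, 0.444% and 1.61% in SB animals and 3.29%, 3.39% and 4.58% in WT animals, whereas Ighv6-6 took 0.712%, 3.06% and 1.93% in SB animals and 1.2%, 1.80% and 1.49% in WT animals. In a further check the 5 genes that lead in any animal (Ighv1-67, Ighv1-82, Ighv1-9, Ighv5-9-1 and Ighv6-3) were left out of every animal. The Ighv6 mean share was then 0.482 percentage points higher in SB animals. Ighv6-3 was left out as the leader of WT animal 3 and held most of the WT Ighv6 share, so the change of sign follows from leaving it out. The single Ighv4 gene, Ighv4-1, took 0.90%, 0.573% and 0.455% in SB animals and 0.926%, 0.906% and 1.26% in WT animals.

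The Ighv5 family overlapped between genotypes, at 10.3%, 7.91% and 8.38% in SB animals and 14.1%, 18.3% and 9.45% in WT animals (exact permutation p = 0.2). Ighv5-9-1 made up 7.87% and 8.13% of Ighv counts in WT animals 1 and 2, but 1.40% in WT animal 3. Ighv12, a family of 1 gene below the 1% limit, took 0.188%, 0.218% and 0.012% in SB animals and 0.363%, 0.549% and 1.06% in WT animals, and was not tested. By position in the locus, shares differed by less than the spread between animals. The 37 members nearest the D segments took 32.8% ± 2.9 of Ighv counts in SB animals and 32.6% ± 2.2 in WT animals (SD, n = 3 each, exact permutation p = 1.0). The 37 farthest members took 32.1%, 20.1% and 36.4% in SB animals and 31.8%, 33.5% and 33.7% in WT animals (exact permutation p = 0.8), with SB animal 2 lowest.

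The spread of RNA over the members was summarised by the inverse Simpson index, the number of equally used genes that would give the same evenness. It was 37.8, 17.5 and 38.4 genes in SB animals, against 36.4, 38.3 and 46.5 genes in WT animals (two-sided exact permutation p = 0.5). SB animal 2 had the lowest value, in piece 2 (17.6) and in piece 1 (17.1) alike. SB animal 1 had 22.8 in piece 2 and 38.4 in piece 1. The 10 most used members held 42.9%, 58.6% and 39.2% of Ighv counts in SB animals and 40.9%, 39.3% and 36.7% in WT animals (exact permutation p = 0.3). A count was seen for 89, 101 and 99 members in SB animals and for 109, 109 and 107 members in WT animals, at total Ighv counts of 2667 to 12386 in SB animals and 33837 to 50121 in WT animals.

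The leading genes differed from spleen to spleen. In SB animal 2 Ighv1-9 took 14.7% of Ighv counts in piece 2 and 17.2% in piece 1, and Ighv14-4 took 13.2% in piece 2 and 10.9% in piece 1. In SB animal 3 Ighv1-67 took 6.38% in piece 2 and 8.40% in piece 1, against at most 0.309% in any WT library. Ighv3-6 led in piece 2 of that spleen, with 10.4%, against 4.83% in piece 1. In SB animal 1 the leading genes per length were Ighv1-18, Ighv1-82 and Ighv1-5, none above 5.59% of the spleen's Ighv counts. The pieces of SB animal 1 also had different leaders. There Ighv1-64 took 14.4% in piece 2 and 2.81% in piece 1, while Ighv1-18 took 1.24% in piece 2 and 6.42% in piece 1. In WT spleens the leaders were Ighv5-9-1 in both pieces of animals 1 and 2 and Ighv6-3 in animal 3 as a whole, at 4.58% to 8.13%. In WT animal 3 Ighv6-3 took 5.28% in piece 2 and 3.90% in piece 1, while Ighv1-81, the leader of piece 1, took 4.03% in piece 2 and 4.76% in piece 1.

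**Figure D4:**
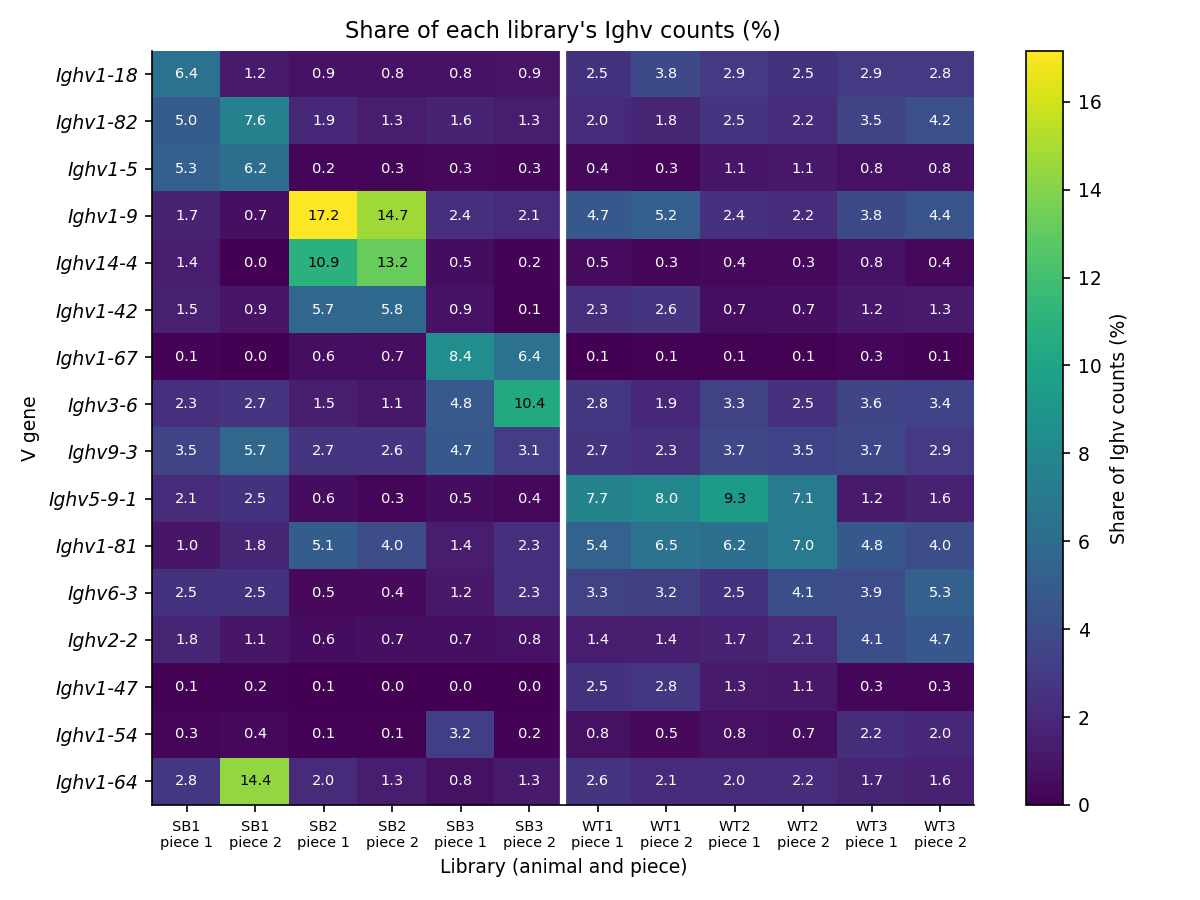
Share (%) of each library's Ighv counts taken by the 3 leading genes per length of each animal and by Ighv1-47, Ighv1-54 and Ighv1-64 (rows), in the 6 SB libraries (left of the white line) and the 6 WT libraries (right). Ighv1-9 and Ighv14-4 stand out in both pieces of SB2, Ighv1-67 in both pieces of SB3 and Ighv1-64 in 1 piece of SB1.

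Whether spleens of the same genotype differed was asked with 1 coefficient per animal, so that the error is the spread between pieces and the p-values compare these spleens only. Between the SB animals 68 of 96 tested members differed by edgeR, against 70.1% of all genes tested, so the count does not set the V genes apart. Between the WT animals 9 of 96 differed (34 at an unadjusted p under 0.05), against 74 of 17758 genes or 0.417% of all genes tested. The 9 were Ighv1-47, Ighv2-6-8, Ighv5-9-1, Ighv2-3, Ighv5-6, Ighv5-4, Ighv1-75, Ighv1-22 and Ighv1-74. Ighv1-47 had the smallest adjusted p (3.41e-05). Its pieces 2 and 1 had 44.7 and 34.6 CPM in WT animal 1, 14.9 and 15.5 CPM in WT animal 2 and 3.41 and 2.91 CPM in WT animal 3. The pieces of each spleen lay close together, and no spleen overlapped another. The count of 9 was 2 without WT animal 1 (0.0739% of all genes), 4 without WT animal 3 (0.165%), 15 without SB animal 1 (0.713%), 5 without SB animal 2 (0.245%) and 2 with the summed Ighv counts as library size (0.13%). Between the SB animals it was 43 without SB animal 2 (45.6% of all genes), where the other 2 were compared.

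A member was called particular to a spleen when it passed against the mean of the other 2 animals of its genotype and neither of its pieces fell within the range spanned by the 10 libraries of the other animals. Above all others there were 6 members in WT animal 1 (0.0957% of all genes), 2 in WT animal 2 (0.0282%) and 2 in WT animal 3 (0.0676%). Below all others there were 0 in each, against 0.0113%, 0.0169% and 0.13% of all genes in WT animals 1, 2 and 3. Those of WT animal 1 were Ighv1-47 (log2 2.52), Ighv2-6-8 (2.70), Ighv2-3 (2.02), Ighv5-4 (1.39), Ighv1-39 (1.11) and Ighv1-80 (1.09). Ighv5-6 and Ighv1-75 marked WT animal 2, and Ighv1-74 and Ighv1-84 marked WT animal 3. Ighv2-6-8, for example, had 8.44 and 8.54 CPM in pieces 2 and 1 of WT animal 1, against 0.861 to 2.17 CPM in the other WT libraries and 0 to 2.41 CPM in SB libraries.

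Above all other libraries stood 3 members in SB animal 2 (14.7% of all genes), 3 in SB animal 3 (12.3%) and 0 in SB animal 1 (14.7%), so these counts lie under the background. In SB animal 2 they were Ighv14-4 (log2 5.83), Ighv1-43 (5.37) and Ighv1-37 (4.86). Ighv1-43 had 6.27 and 7.15 CPM in pieces 2 and 1 of SB animal 2, against 0 to 1.30 CPM in the other SB libraries and 0.132 to 0.46 CPM in WT libraries. In SB animal 3 they were Ighv1-49 (6.40), Ighv8-11 (5.41) and Ighv1-67 (5.02). Below all other libraries were 29 members in SB animal 1 (14.2% of all genes), 1 in SB animal 2 (9.33%) and 3 in SB animal 3 (10.2%). The 5 members of smallest adjusted p between SB animals were Ighv5-4, Ighv1-81, Ighv10-3, Ighv1-67 and Ighv2-3, and Ighv5-4 had 22.1 and 18.5 CPM in SB animal 2, 0.428 and 1.24 CPM in SB animal 1 and 1.57 and 1.86 CPM in SB animal 3 (pieces 2 and 1). All of these 5 except Ighv1-67 were highest in SB animal 2.

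Pieces were compared within each spleen, with the animal as a block. Over all animals 6 of 94 tested members passed by edgeR, against 10.1% of all genes tested, 1 higher and 5 lower in piece 2. In WT animals 2 members were called, both higher in piece 2 (8.32% of all genes were called): Ighv8-5 (log2 1.07, SE 0.23, adjusted p 0.0216) and Ighv7-3 (log2 0.72, SE 0.19, adjusted p 0.0388). In SB animals edgeR called 0 members and 0 of all 16787 genes (0%), while 32 members had an unadjusted p under 0.05, against 20.1% of all genes. DESeq2 called 4 of the 19 members it gave an adjusted p in SB animals, against 2.98% of all genes. With single animals left out, 0 to 20 members were called over all animals. The count was 20 without SB animal 2 (12.5% of all genes), and 0 without SB animal 3, WT animal 2 or WT animal 3 (0% of all genes each). In SB spleens the count was 23 without SB animal 2 (4.63% of all genes) and 1 without SB animal 1 (0.029%). In WT spleens it was 0 without WT animal 2 or WT animal 3 (0% each), 1 without WT animal 1 (5.83%) and 13 without SB animal 1 (19.4%).

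The difference between pieces (2 minus 1 in SB spleens, B minus A in WT spleens) was itself different between genotypes for 5 members (Ighv7-3, Ighv1-34, Ighv1-53, Ighv1-54 and Ighv8-12), against 1.23% of all genes tested. Each was lower in SB than in WT spleens under this numbering. With the WT letters numbered the other way the contrasts exchange, so that 5 members were called over all animals (1.23% of all genes) and 6 for the difference between genotypes (10.1%). The signs and the calls of the piece contrasts therefore rest on a numbering that the labels tie to no position, in SB as in WT spleens. Exchanging the pieces of single spleens was not tried. In SB animal 3 Ighv1-54 had 0.246 CPM in piece 2 and 7.68 CPM in piece 1, Ighv1-34 had 1.33 CPM in piece 2 and 10.1 CPM in piece 1, and Ighv15-2 had 0.147 CPM in piece 2 and 2.19 CPM in piece 1. In SB animal 1 Ighv1-53 had 0.855 CPM in piece 2 and 3.98 CPM in piece 1, and Ighv8-12 had 0.489 CPM in piece 2 and 1.97 CPM in piece 1. In WT animal 3 Ighv1-54 had 22.5 CPM in piece 2 and 20.6 CPM in piece 1. The count of members with a different piece effect was 0 without SB animal 3, WT animal 2 or WT animal 3 (0% of all genes each), 18 without SB animal 2 (2.07%) and 9 without SB animal 1 (2.97%). Ighv1-50, Ighv15-2 and Ighv8-5 were the further members called over all animals, with log2 differences of -0.86, -1.81 and 1.00.

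The make-up of V gene use in pieces of the same spleen was compared with that in pieces of different spleens by the Morisita index. It is near 1 for the same make-up and 0 for none shared. The terms it is built from do not depend on depth on average, although their ratio may. In SB spleens the pieces had indices of 0.717, 0.987 and 0.811 (animals 1, 2 and 3), and in WT spleens 0.985, 0.974 and 0.979. Between different SB spleens the index was 0.284 to 0.465 (6 pairs), and between different WT spleens it was 0.770 to 0.920 (6 pairs). Between SB and WT spleens it was 0.355 to 0.742 (18 pairs). Pieces of each spleen were more alike than any pieces of different spleens of the same genotype. Across genotypes this did not hold for SB animal 1. Its piece 1 had an index of 0.742 with piece 2 of WT animal 3, against 0.717 with its own piece 2. The mean of the same-spleen indices was 0.909, higher than in any other pairing of pieces within the genotypes (one-sided exact permutation p = 0.0278, the smallest that 36 pairings can give).

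**Figure D5:**
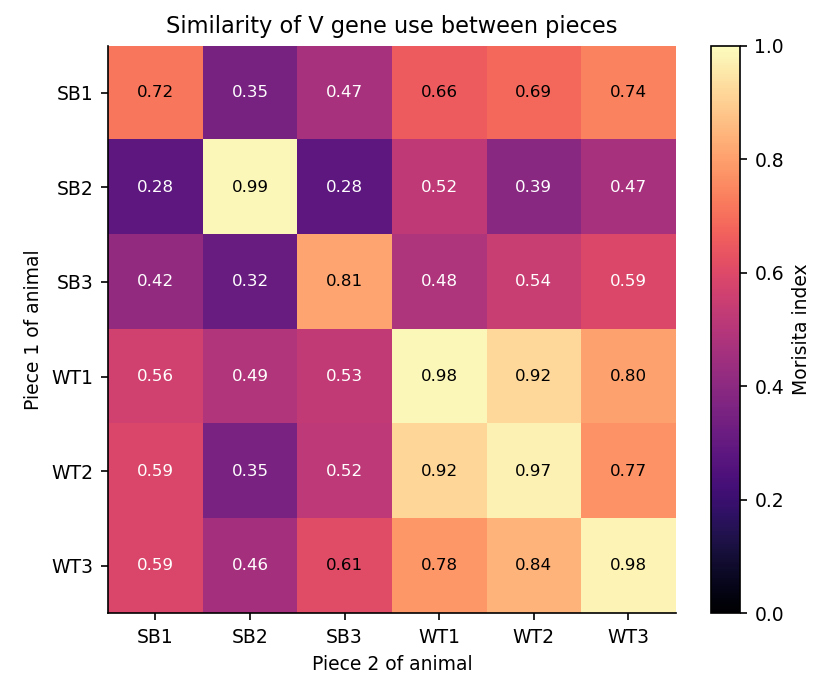
Morisita index of V gene use between piece 1 of each animal (rows) and piece 2 of each animal (columns), SB animals first. The diagonal holds pieces of the same spleen, 0.717 to 0.987 in SB animals and 0.974 to 0.985 in WT animals, while different SB spleens share 0.284 to 0.465.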

How the data were processed

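Poly-A RNA of 12 spleen pieces was made into libraries that carry no strand, per the labels' protocols. The authors deposited counts of reads for each Ensembl gene, and from the values these whole numbers were not normalised. The submitters' processing notes name STAR 2.5.3a, limma and the builds mm10 and GRCm38, without their roles. The counting mode is not given in the sources used here. Reads over joins and somatic mutations may align less often, and members with near-identical copies may share or lose reads. Symbols and positions came from GENCODE release M21 of GRCm38, which matched 32026 of 32121 rows.

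Genotypes were compared on counts summed over the pieces of an animal with edgeR 4.0.16 (TMM, filterByExpr, robust quasi-likelihood fit, two-sided, Benjamini-Hochberg adjusted p under 0.05 over all genes) in R 4.3.3. Pieces were compared over 12 libraries with the animal as a block, since the titles name the animal. Animals were compared with 1 coefficient each. CPM are TMM-scaled, and standard errors (SE) come from the F statistic. DESeq2 1.42.0 was an alternative. The edgeR fits, but not DESeq2, were tried on simulated data. For the genotype comparison the simulated spread between animals was smaller than in these data, so that trial does not measure its performance here. Exact permutation tests used scipy 1.17.1. Shares use raw counts. The Simpson and Morisita indices are built from terms unbiased for the sampling of reads, but as an inverse and a ratio they need not be unbiased themselves. CPM per kb use exon bases.

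Members and gene lists were chosen with earlier results of these data known. Genes named were the 10 highest per kb in WT animals, the 3 highest per kb in each SB animal, the 5 lowest and 5 highest changes among called members with a mean of at least 5 CPM, the 3 most abundant members not called, members called between pieces (up to 5 per contrast and direction), the 5 of smallest adjusted p between animals of each genotype, and 7 genes of known use. Genes counted as particular to a spleen are named besides. The 47 Ighv rows of other biotypes were outside the rule. The counts of 1 list of related genes are not reported here.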

Additional observations from a re-analysis of the deposited data

Results flagged for a closer look

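The difference between pieces (piece 2 over piece 1) was not the same in both genotypes for 5 V genes, by the interaction term of edgeR's quasi-likelihood fit. The log2 difference, SB minus WT, was -1.92 for Ighv7-3, -2.99 for Ighv1-34, -1.75 for Ighv1-53, -3.38 for Ighv1-54 and -1.87 for Ighv8-12, with adjusted p of 0.0494, 0.041, 0.0487, 0.0465 and 0.0415. None of them held with SB animal 3 left out. The difference sets pieces 2 and 1 of SB spleens beside pieces B and A of WT spleens, which the labels do not tie together. Its sign and its calls depend on how the pieces of each spleen are numbered. Only the exchange of all WT letters together was tried.

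Counts also appeared on Ighv rows annotated as pseudogenes, which no comparison above uses. The 4 rows named first were picked by their SB values. Both pieces of an SB animal had at least 20 counts and over 3 times the highest WT CPM. Their contrast with WT libraries follows from that choice. Rows that go the other way were not picked, such as Ighv1-2, with 0 to 9 counts in SB libraries and 10 to 27 in WT libraries. Ighv1-14 had 98 and 80 counts in pieces 2 and 1 of SB animal 2 and 48 and 87 in SB animal 3, against 0 to 7 in WT libraries. Ighv3-2 had 115 and 93 counts in pieces 2 and 1 of SB animal 2 and 35 and 42 in SB animal 3, against 4 to 7 in WT libraries. Ighv4-2 had 40 and 38 counts, and Ighv1-70 had 36 and 34 counts, in pieces 2 and 1 of SB animal 2, against 2 to 10 and 2 to 9 counts in WT libraries. In SB animal 1 each of these 4 rows had at most 1 count per piece. Over the 47 pseudogene rows, SB animals 1, 2 and 3 had 7, 699 and 468 counts and WT animals 1, 2 and 3 had 289, 251 and 214 counts. These rows were 0.237% to 5.92% of all Ighv counts in SB libraries and 0.505% to 0.704% in WT libraries.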

How the results depend on the processing

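Called members between SB and WT animals numbered 43, and 67 with DESeq2. With library size taken as the summed Ighv counts, an alternative chosen after seeing the data, 4 were lower and 5 higher, while most other genes in the table were also called. Adjustment over all genes did little near the threshold under that setting. Leaving out 1 animal gave 7 to 66. The animal block defines the piece results, and with no replicate block 0 members were called in each of the 4 contrasts. Without a filter on low counts the pieces gave 18 members over all animals (8.88% of all genes) and 27 in SB (4.22%). They gave 13 in WT (6.83%) and 31 for the difference between genotypes (3.79%). Under that setting 35 members differed between WT animals (2.26% of all genes). DESeq2 gave 4 for SB pieces (2.98% of all genes) and 10 for the difference (3.78%). With 1 animal left out the counts were 0 to 20 over all animals, 0 to 23 in SB, 0 to 13 in WT and 0 to 18 for the difference. Between SB animals 43 to 68 members differed with 1 animal left out (45.6% to 71.2% of all genes). Between WT animals 2 to 15 did (0.0739% to 1.88% of all genes). Library size as summed Ighv counts gave 2 between WT animals. Family shares changed sign as follows (SB minus WT, percentage points). Ighv8 was 0.039 without near-identical copies and 0.144 in piece 2 only. Ighv1 was -5.42 and Ighv6 0.482 with the 5 genes that lead in any animal left out of every animal. With 1 animal left out, Ighv1 was -0.343 to 4.11, Ighv3 -0.336 to 2.47, Ighv8 -1.31 to 1.07 and Ighv10 -0.934 to 0.733. The causes were not tested. Numbering the WT pieces the other way, chosen after seeing the data, exchanged the counts of 6 over all animals and 5 for the difference. That numbering included, 185 recomputed values stayed on their side of the threshold or, for counts, within 1.5 times the count given. Beside them, 21 were weaker, 16 stronger and 11 changed sign. Exact permutation tests of 3 animals against 3 have a smallest p of 0.1. They could not cross the threshold, so their staying on 1 side was fixed in advance and does not show stability. The fewest Ighv counts, 564 in piece 2 of SB animal 1, limit the precision of its shares.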
